A study of Mus musculus with 8 samples.

Results

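The 9 genes described here encode transporters that carry amino acids across the plasma membrane of mouse T cells, and they were picked by name from the 20170 genes of a single-cell count matrix holding 12846 cells. They are Slc7a5, Slc3a2, Slc1a5, Slc1a4, Slc7a1, Slc7a6, Slc7a11, Slc38a1 and Slc38a2. No expression value entered the choice, although earlier results of these data were known when it was made. All 9 were in the matrix, and each was followed through its unique molecular identifiers (UMIs, the tags that let each captured mRNA molecule be counted once), summed per library and per annotated cell group.

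T cells that leave the resting state grow and divide, and they take up far more amino acids to do so. Slc7a5 encodes LAT1, the carrier of leucine and other large neutral amino acids, which works as a heterodimer with the glycoprotein CD98 encoded by Slc3a2. Slc1a5 encodes ASCT2, a sodium-dependent exchanger of glutamine and small neutral amino acids, and Slc1a4 its close relative ASCT1. Slc38a1 and Slc38a2 encode SNAT1 and SNAT2, which take up glutamine and alanine together with sodium. Slc7a1 encodes CAT1, the main carrier of arginine and lysine, while Slc7a6 and Slc7a11 encode y+LAT2 and xCT, which both pair with CD98. The first of these exchanges cationic for neutral amino acids, and xCT imports cystine in exchange for glutamate, the supply of cysteine for glutathione. Leucine and arginine that enter through such carriers are sensed by proteins that control the growth kinase MTORC1 at the lysosome.

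The libraries held T cells enriched from the spleens of B6 mice aged 8 to 12 weeks, with dead cells removed. SDHA-KO mice carried Sdha fl/fl with CD4-Cre, a transgene that is active from the CD4-expressing stage of T cell development. Sdha encodes the flavoprotein subunit of succinate dehydrogenase, an enzyme of both the tricarboxylic acid cycle and the respiratory chain. The labels give the control genotype only as WT, and WT donors in other experiments of the study were Sdha fl/fl, which is not stated for these libraries. The 4 groups crossed genotype (WT or SDHA-KO) with stimulation and held 2 libraries each, and stimulated cells had spent 48 hours with 5 µg/mL anti-CD3 and 2.5 µg/mL anti-CD28. The medium described for T cell culture was RPMI with 10% serum, 2 mM L-glutamine, pyruvate, β-mercaptoethanol and a nonessential amino acid mix, so these cells were supplied with the substrates of several of the carriers. Nothing in the labels says whether the 2 libraries of a group came from separate mice, so p-values measure only the spread between these libraries.

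Each library held 1395 to 1801 cells and 10947009 to 51398728 UMIs. The submitters' table gave every cell a CD4 or CD8 class and a subset such as central memory (Tcm) or effector memory (Tem). The summed T cell markers (Cd3e, Cd3d, Cd3g and the receptor constant chains) reached 2292 to 4928 plain CPM, against 37.4 to 182.7 for 6 B cell genes, 53.8 to 150.9 for 5 myeloid genes and 1.07 to 11.6 for 3 NK cell genes. Of the myeloid sums, 52.5 to 150.6 plain CPM were Cst3 alone. The highest B cell sum was that of stimulated SDHA-KO replicate 1, where Igkc was at 107.2 plain CPM, against 6.78 in replicate 2. A pair of libraries shared between 0 and 3 cell barcodes over 28 pairs. CPM here means UMIs scaled to a library total of 1000000 UMIs, with totals adjusted by the trimmed mean of M-values (TMM) unless called plain.

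Before stimulation Sdha itself was at 98.0 and 99.1 CPM in WT libraries and at 46.6 and 46.1 CPM in SDHA-KO libraries. After it the levels were 74.7 and 73.9 CPM for WT and 37.6 and 34.1 CPM for SDHA-KO. It was therefore lower in every SDHA-KO library than in every WT library, as the labels require. In stimulated CD4-class cells it fell from 74.0 and 73.1 CPM in WT to 26.5 and 26.4 in SDHA-KO. In stimulated CD8-class cells the WT libraries had 76.2 and 74.9 CPM and the SDHA-KO libraries 53.3 and 50.4, so the targeted transcript was less reduced in that class.

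The stimulated SDHA-KO CD8 class was mixed. Trdc, the constant segment of the T cell receptor delta chain, had a UMI in 57.6% ± 2.15 (SD, n = 2) of its cells, against 4.29% in stimulated WT. With every cell thinned at random to 5000 UMIs the shares were 38.7% ± 0.28 and 2.99% ± 0.53. The 7 gamma delta T cell genes present in the matrix summed to 254.3 to 260.9 plain CPM in that class, against 18.1 to 21.2 plain CPM in stimulated WT, and to 17.7 to 22.0 against 5.50 to 6.39 plain CPM in the CD4 class. Within the stimulated SDHA-KO CD8 class, Sdha was at 74.0 and 70.9 plain CPM in the 302 and 222 cells with a Trdc UMI and at 36.9 and 33.6 plain CPM in the 209 and 174 cells without. The WT cells of that class were at 80.0 and 88.3 plain CPM with a Trdc UMI and at 90.3 and 86.2 without. Cells with a Trdc UMI, which made up 57.6% of this class, thus had an Sdha level nearer to WT than to that of the other SDHA-KO cells. Results of the members were therefore also computed without those cells, an alternative added after the data were seen. The other gene lists, the search for genes of similar course, the numbers of members per cell and the spread of UMIs over cells were computed with all cells only.

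A pair of the genes have a run of bases in their promoter that the other members with a promoter sequence lack. RefSeq gave windows of 250 bases before to 50 bases after a transcription start for 6 of the 9 members (8 windows, GRCm38.p6), and none for Slc7a5, Slc1a5 or Slc38a1. They were searched on both strands for TGATGNAA, the element bound by ATF4 with C/EBP proteins, for CACGTG, the E-box, and for TGACNNNGC, the NRF2 element. Of 32851 windows of this length, 3.97% held TGATGNAA, 7.15% CACGTG and 12.4% TGACNNNGC. Slc7a11 held TGATGNAA at 2 places, 66 and 47 bases before the start and on opposite strands, and Slc1a4 held it 4 bases before the start, reaching into the transcript. Slc7a1, Slc7a6 and Slc38a2 held TGACNNNGC, Slc3a2 held no match to any of the 3, and no member window held CACGTG. The stretches that hold TGATGNAA are shown because Slc7a11 and Slc1a4 were also the members with the fewest UMIs at rest, and beside them that of Asns, the asparagine synthetase gene described further on. Asns was picked from the gene lists described there. No other gene of those lists was looked up, so the share of them with a match is not known. Capitals mark the matches, and the sequences read 5′ to 3′ along the coding strand. The Slc7a11 and Asns stretches end at the base before the start of transcription.
Slc7a11, chr3:50443614-50443713, minus strand: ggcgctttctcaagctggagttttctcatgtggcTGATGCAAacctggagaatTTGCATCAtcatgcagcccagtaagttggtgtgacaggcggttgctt
Slc1a4, chr11:20332710-20332813, minus strand: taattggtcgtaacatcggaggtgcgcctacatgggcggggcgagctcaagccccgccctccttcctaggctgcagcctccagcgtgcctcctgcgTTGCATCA
Asns, chr6:7693210-7693309, minus strand: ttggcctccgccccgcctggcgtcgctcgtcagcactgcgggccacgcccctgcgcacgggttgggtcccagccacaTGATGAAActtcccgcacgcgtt
A match is a string of letters and was not tested as a binding site.

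The first comparison asked what 48 hours of stimulation did to the transporters in WT cells. Of the 9 genes, 8 rose and 1, Slc38a2, fell, by edgeR's quasi-likelihood test with Benjamini-Hochberg adjustment at 0.05. Among all 15262 genes tested, 37.0% rose and 31.9% fell, so a call alone was common. The median log2 fold change of the members was 1.61, against 0.08 over all genes. With plain library sizes the median of all genes was 0.43 in place of 0.08.

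Slc7a5 went from 11.9 and 10.5 CPM at rest to 90.2 and 97.0 CPM after stimulation of WT cells, an 8.39-fold rise (log2 3.07 ± 0.11 SE, adjusted p = 9.8e-09). Slc3a2, the partner chain, went from 67.0 and 77.2 to 170.3 and 159.0 CPM, a 2.28-fold rise. The glutamine exchanger Slc1a5 went from 38.1 and 38.9 to 122.0 and 113.3 CPM, a 3.05-fold rise, and the arginine carrier Slc7a1 from 39.3 and 40.1 to 137.4 and 129.0 CPM, a 3.35-fold rise. No stimulated library overlapped an unstimulated one for any of these 4 genes.

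Smaller rises were seen for Slc7a6, from 14.9 and 17.2 to 26.4 and 25.7 CPM (log2 0.69 ± 0.10), and for Slc38a1, from 78.1 and 78.6 to 122.1 and 111.8 CPM (log2 0.58 ± 0.07). Slc38a2 went the other way, from 208.9 and 218.1 to 141.0 and 128.8 CPM, so it fell by 0.66 ± 0.08 on the log2 scale. That fall was smaller with plain library sizes, at −0.32, and in the WT CD8 class it became a difference of 0.05. In TMM-scaled sums the SNAT1 and SNAT2 genes, which encode carriers of overlapping substrates, thus moved in opposite directions relative to all genes. The share of cells with a Slc38a2 UMI did not fall in both classes. With each cell thinned to 5000 UMIs it was 53.9% in resting and 65.4% in stimulated WT CD8-class cells. In WT CD4-class cells without a Trdc UMI it was 58.7% and 56.1%.

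Slc1a4 and Slc7a11 were close to absent at rest. The 2 unstimulated WT libraries held 8 UMIs of Slc1a4 and the stimulated ones 1050, a ratio of 25.0 in CPM with a 95% counting interval of 12.7 to 58.1. For Slc7a11 the counts were 0 and 302, which set against a floor of 3 UMIs over the group gives a level at least 19.2-fold higher after stimulation. Such intervals and floors cover counting error only.

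**Figure D1:**
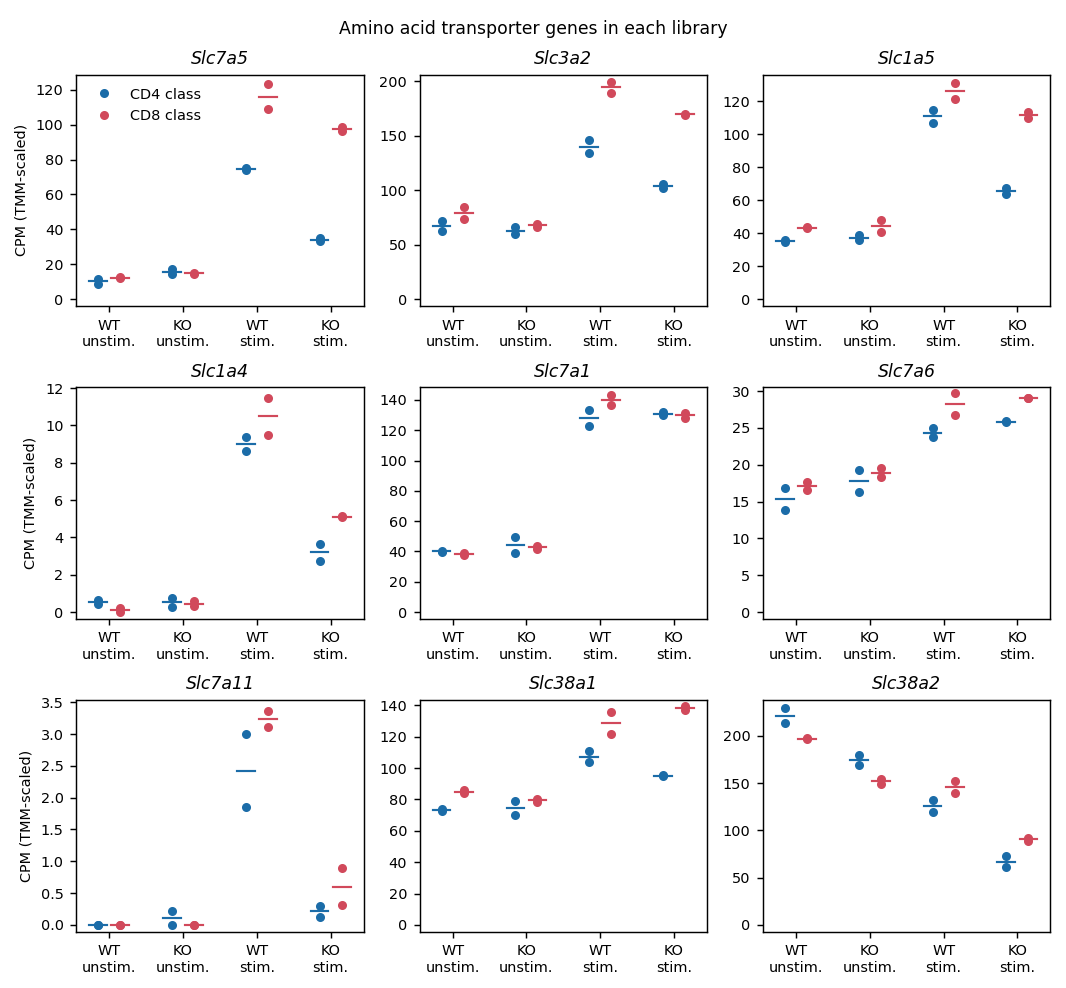
CPM (TMM-scaled, linear axes from 0) of each transporter gene in the unstimulated and stimulated WT and SDHA-KO groups, CD4 class in blue and CD8 class in red. Points are libraries and lines mark the mean of 2. Slc7a5 rose to 108.7 and 123.0 CPM in stimulated WT CD8-class cells and to 74.2 and 75.3 in CD4-class cells. In SDHA-KO CD4-class cells it rose from 17.0 and 14.6 to 35.0 and 33.4 CPM.

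The same split of 8 rises and 1 fall was found in each WT class, where 66.3% of all tested genes of the CD4 class and 65.7% of the CD8 class were called in either direction. Without cells carrying a Trdc UMI all 9 members were again called in all WT T cells and in each WT class. SDHA-KO cells also moved 8 members up and Slc38a2 down, against 38.5% and 32.6% of all genes. The count was 8 in place of 9 without unstimulated SDHA-KO replicate 2, without either stimulated WT library and without stimulated SDHA-KO replicate 1. Slc7a11, with the fewest UMIs of the members, went from 2 to 39 UMIs in SDHA-KO cells, a ratio of 5.01 (1.30 to 42.8). Without Trdc cells 8 members were called in all SDHA-KO T cells, all but Slc7a11, and 8 in the SDHA-KO CD8 class, with Slc7a5 at 1.36 and 2.03 on the log2 scale. With Trdc cells included, Slc7a5 in all SDHA-KO T cells went from 16.2 and 14.6 to 61.5 and 53.2 CPM, a 3.73-fold rise. In the SDHA-KO CD4 class 7 members rose and 1 fell with 69.8% of genes called, and Slc7a11 was the exception with 2 UMIs before and 15 after stimulation, a ratio of 2.19 (0.51 to 19.8). In the SDHA-KO CD8 class 8 rose and 1 fell with 68.2% of genes called. Slc7a11 went from 0 to 24 UMIs there, which is at least 1.43-fold higher, and the total of 9 calls was 8 without any 1 of 5 libraries (either unstimulated SDHA-KO, either stimulated WT, or stimulated SDHA-KO replicate 1).

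Before stimulation, the next comparison asked whether loss of Sdha alone altered the transporters. No member passed the test in all T cells, in the CD4 class or in the CD8 class, where 1.75%, 1.10% and 0.947% of all genes were called by edgeR. Of the 9 members, 2 had an unadjusted p under 0.05 in each of the 3 sets, and DESeq2 called 1 in each. Without Trdc cells none was called in any of the 3 sets either. The gene nearest the threshold in all T cells was Slc38a2, at 208.9 and 218.1 CPM in WT and 171.4 and 162.6 in SDHA-KO (log2 −0.35, 95% interval −0.54 to −0.17, adjusted p = 0.077). Slc7a5 pointed upward, from 11.9 and 10.5 to 16.2 and 14.6 CPM (log2 0.46, 0.17 to 0.76, adjusted p = 0.12). For Slc1a5 the difference was 0.01 with an interval of −0.17 to 0.18, and for Slc38a1 −0.06 with an interval of −0.23 to 0.12.

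After stimulation, the comparison of SDHA-KO with WT asked whether the deletion altered the transporters of activated cells. In all T cells 6 of the 9 were lower and none was higher, while 21.0% of all genes were lower by the same test. The 6 were the LAT1 pair Slc7a5 and Slc3a2, the exchangers Slc1a5 and Slc1a4, the cystine carrier Slc7a11 and the SNAT2 gene Slc38a2. The median of the 9 was −0.51 and that of all genes 0.00.

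Slc7a5 stood at 61.5 and 53.2 CPM in stimulated SDHA-KO libraries against 90.2 and 97.0 in WT, which is 61.3% of the WT level (log2 −0.71 ± 0.08, adjusted p = 0.00013). Its partner Slc3a2 was at 132.7 and 124.0 against 170.3 and 159.0 CPM, a smaller difference (log2 −0.36 ± 0.08, adjusted p = 0.0043). Slc1a5 was at 85.4 and 79.7 against 122.0 and 113.3 CPM, 70.2% of WT. None of these 3 genes had an SDHA-KO library as high as a WT library.

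The lowest ratios belonged to the sparse members. Slc1a4 was at 4.27 and 3.51 CPM against 10.3 and 9.03, 40.2% of WT. Slc7a11 was at 0.445 and 0.305 CPM against 3.16 and 2.42, which is 13.5% of WT and rests on 39 UMIs in SDHA-KO and 302 in WT. Slc38a2, which in TMM-scaled sums also fell on stimulation in WT, was at 81.0 and 70.2 CPM against 141.0 and 128.8, or 56.0% of WT.

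The other 3 members did not pass the test. Slc7a1 was at 131.1 and 131.9 CPM in SDHA-KO and 137.4 and 129.0 in WT (log2 −0.02, 95% interval −0.19 to 0.15). Slc7a6 was at 27.3 and 27.1 against 26.4 and 25.7 CPM (0.06, −0.13 to 0.25), and Slc38a1 at 113.3 and 109.7 against 122.1 and 111.8 CPM (−0.07, −0.22 to 0.09). The groups overlapped for Slc7a1 and not for Slc7a6.

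With cells carrying a Trdc UMI left out, the differences of these 6 genes in all T cells were larger. Slc7a5 was then lower by 1.18 ± 0.08 on the log2 scale, at 43.3 and 38.7 CPM against 89.3 and 96.1, and Slc1a5 by 0.70. Slc38a1 passed the test as well (log2 −0.24, adjusted p = 0.017), which made 7 members lower, while Slc7a6 stood at −0.00.

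Cell state also differed between the stimulated groups. The median cell held 16.2% to 17.9% mitochondrial UMIs in stimulated WT libraries and 2.20% to 2.29% in stimulated SDHA-KO, and 13745 to 13809 UMIs against 25116.5 to 25465.5. Keeping only cells with less than 10% mitochondrial UMIs left 1181 of 3504 stimulated WT and 2730 of 3328 stimulated SDHA-KO cells. In those cells Slc7a5 was still lower in SDHA-KO (log2 −0.62, adjusted p = 0.00070), as were Slc1a5 (−0.32), Slc1a4 (−0.96), Slc7a11 (−2.92) and Slc38a2 (−0.51). Slc3a2 lost its call (−0.21, adjusted p = 0.059) and Slc7a1 was called higher (0.26, adjusted p = 0.021).

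In the CD4 class the same 6 genes were lower, with 20.5% of all genes lower, and the median of the members was −0.76. Slc7a5 was at 35.0 and 33.4 CPM against 74.2 and 75.3, which is 45.7% of WT (log2 −1.13 ± 0.09, adjusted p = 5.5e-06). Slc1a5 was at 67.6 and 63.7 against 114.6 and 106.9 CPM (59.2% of WT), Slc3a2 at 105.7 and 102.1 against 145.6 and 133.7 CPM (74.4%), and Slc38a2 at 72.5 and 60.8 against 131.8 and 119.6 CPM (53.0%). Slc1a4 was at 3.64 and 2.76 against 9.39 and 8.63 CPM (35.5%) and Slc7a11 at 0.130 and 0.298 against 3.0 and 1.85 CPM (9.31%). In every one of these 6 genes both SDHA-KO libraries lay below both WT libraries. Slc7a1 stayed at 131.9 and 129.8 against 133.4 and 122.8 CPM (log2 0.03, −0.17 to 0.23). Leaving out cells with a Trdc UMI gave −1.13 for Slc7a5 in the CD4 class and again 6 lower members. With only cells under 10% mitochondrial UMIs it was −1.001, the 6 members were lower there too, and Slc7a1 was called higher (0.28).

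In the CD8 class 5 members were lower, with 23.5% of all genes lower, and the median was −0.20. Slc7a5 was at 98.9 and 96.5 CPM against 108.7 and 123.0, or 84.3% of WT (log2 −0.25 ± 0.08, adjusted p = 0.018), and Slc3a2 at 170.0 and 169.2 against 199.1 and 189.4 CPM (−0.20, adjusted p = 0.042). Neither call was firm. DESeq2 called only the other 3 (adjusted p = 0.089 for Slc7a5 and 0.065 for Slc3a2), and with a replicate block Slc3a2 was not called (adjusted p = 0.067). The Slc7a5 call was also lost without stimulated WT replicate 2 (−0.17) or stimulated SDHA-KO replicate 2 (−0.24), and the Slc3a2 call without any of 6 libraries, namely either unstimulated SDHA-KO library (−0.19 each), stimulated WT replicate 1 (−0.17) or 2 (−0.25), or stimulated SDHA-KO replicate 1 or 2 (−0.21 each).
The differences of Slc38a2, at 92.3 and 88.8 against 152.4 and 139.7 CPM (62.0% of WT), Slc1a4, at 5.12 and 5.08 against 11.5 and 9.50 CPM, and Slc7a11, at 0.893 and 0.309 against 3.36 and 3.11 CPM, were larger. Slc1a5 was not called (−0.18, adjusted p = 0.073).

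Leaving out the cells with a Trdc UMI changed the values of the CD8 class. Slc7a5 was then at 69.3 and 65.9 CPM in SDHA-KO against 108.1 and 122.8 in WT, a log2 difference of −0.77 ± 0.09, and 6 members were lower because Slc1a5 joined them (−0.33). Sdha was at 31.8 and 29.6 CPM against 76.5 and 74.7 in the same cells. Among the SDHA-KO cells of this class, Slc7a5 stood at 130.3 and 128.6 plain CPM in those with a Trdc UMI and at 80.5 and 74.7 in those without, next to 142.1 and 143.4 with and 127.7 and 141.6 without in WT. The SDHA-KO cells with a Trdc UMI thus had more Slc7a5 mRNA than those without. Cells were split by Trdc and not by Sdha, so a link between Sdha and Slc7a5 levels was not tested. Among CD8-class cells under 10% mitochondrial UMIs, with Trdc cells kept, Slc7a5 was not called (−0.11, adjusted p = 0.32) and Slc38a2 (−0.39) and Slc7a11 (−2.22) were lower, Slc3a2 (−0.0064) and Slc1a4 (−0.51) were not called, and Slc7a1 (0.24), Slc7a6 (0.28) and Slc38a1 (0.23) were called higher.

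**Figure D2:**
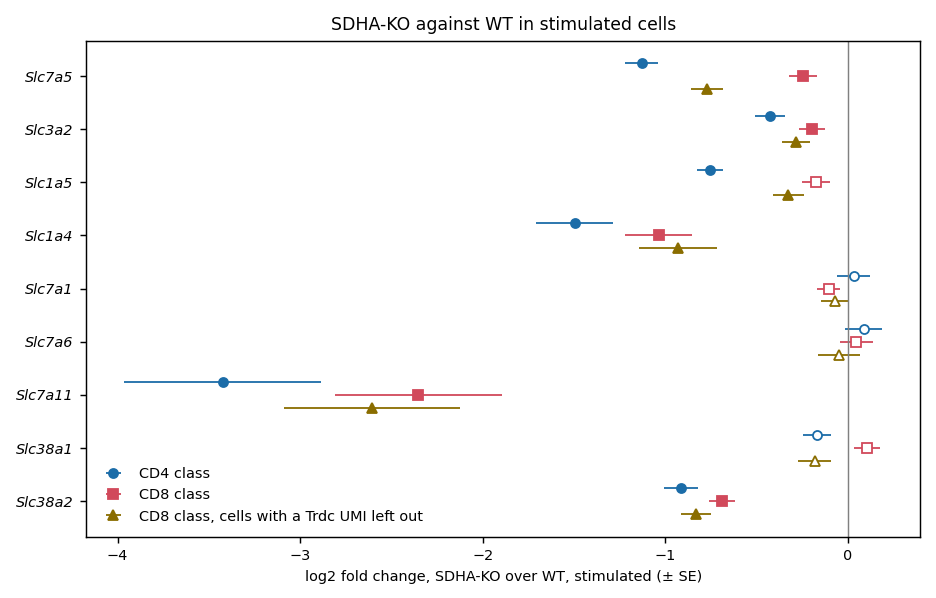
Log2 fold change (± SE) of SDHA-KO over WT in stimulated cells for each transporter gene, with circles for the CD4 class, squares for the CD8 class and triangles for the CD8 class with cells carrying a Trdc UMI left out. Filled symbols passed the test. Slc7a5 sits at −1.13, −0.25 and −0.77, whereas Slc7a1 and Slc7a6 lie near 0 in all 3.

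Whether the difference between genotypes changed with stimulation was tested as an interaction. In all T cells 4 members had a lower KO effect after stimulation than before, where 11.4% of all genes did. They were Slc7a5 (−1.17), Slc1a5 (−0.52), Slc1a4 (−1.65) and Slc38a2 (−0.48). The call of Slc1a4 (adjusted p = 0.048) was lost without either unstimulated WT library (−1.77 and −1.58), unstimulated SDHA-KO replicate 1 (−1.23), either stimulated WT library (−1.56 and −1.75) or stimulated SDHA-KO replicate 2 (−1.52). That of Slc38a2 was lost without replicate 1 of unstimulated WT (−0.48) or of stimulated WT (−0.43). Without Trdc cells 5 members were called, these 4 among them (−1.75, −0.68, −1.88 and −0.64). In the CD4 class 3 were called, Slc7a5 (−1.75, adjusted p = 9.3e-05), Slc1a5 (−0.84) and Slc38a2 (−0.57), against 10.5% of genes lower, and the Slc38a2 call was again lost without unstimulated WT replicate 1 (−0.52) or stimulated WT replicate 1 (−0.46). In the CD8 class no member was called by edgeR, 2 had an unadjusted p under 0.05, and 23.8% of all genes were called in either direction. Slc38a2 was called there without stimulated WT replicate 2 (−0.39). Without Trdc cells, Slc7a5 (−1.28) and Slc38a2 (−0.51) were called there.

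The CD8 and CD4 classes of the same libraries were then compared, with the library as a block. In unstimulated WT cells 2 members were higher in the CD8 class, Slc3a2 (log2 0.26 ± 0.08) and Slc38a1 (0.24 ± 0.07), against 7.98% of genes. Both calls were lost without unstimulated WT replicate 1 (0.27 and 0.21) or replicate 2 (0.24 and 0.25), and that of Slc38a1 without unstimulated SDHA-KO replicate 2 (0.23). DESeq2 called neither, and without Trdc cells Slc38a1 was not called (0.24, adjusted p = 0.087). In unstimulated SDHA-KO none was called by edgeR, 2 had an unadjusted p under 0.05, and 14.9% of genes were called.

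After stimulation 7 members were higher in the CD8 class of WT cells, all but Slc1a4 and Slc7a11, against 12.2% of genes. Slc7a5 was at 108.7 and 123.0 CPM in the CD8 class and 74.2 and 75.3 in the CD4 class, a log2 difference of 0.69 ± 0.05 between the summed libraries, and Slc3a2 followed with 0.53 ± 0.05. The other 5 differences lay between 0.18 and 0.32. Of these, the call of Slc7a1 was lost without either stimulated WT library (0.21 and 0.16) and that of Slc7a6 without stimulated WT replicate 1 (0.15). DESeq2 called 4 of the 7, Slc7a5, Slc3a2, Slc38a1 and Slc38a2. Among cells under 10% mitochondrial UMIs only the LAT1 pair was called (0.54 for Slc7a5 and 0.35 for Slc3a2), and Slc7a1 was at −0.015. Without Trdc cells the same 7 were called, with Slc7a5 at 0.68.

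In stimulated SDHA-KO cells 7 members were higher in the CD8 class, all but Slc7a1 and Slc7a11, against 25.3% of genes, and Slc7a5 differed by 1.58 ± 0.06. The Slc1a4 call was lost without stimulated SDHA-KO replicate 2 (0.54) and that of Slc7a6 without any of the 4 stimulated libraries (0.21 to 0.22). With Trdc cells left out Slc7a5 stood at 69.3 and 65.9 CPM in the CD8 class and 35.2 and 33.0 in the CD4 class, a difference of 1.08 ± 0.07. Then 6 members were called, as Slc7a6 (0.19, adjusted p = 0.16) was not, and Slc38a1 differed by 0.36. The difference of the KO effects themselves was positive for 5 members, against 14.2% of genes. The ratio of SDHA-KO to WT was thus higher in the CD8 than in the CD4 class. Slc38a1 was called lower in neither class, and in the CD8 class it was at 137.1 and 139.7 CPM in SDHA-KO and 135.8 and 121.6 in WT. The difference of effects was 0.89 ± 0.08 for Slc7a5 (adjusted p = 5.3e-06), 0.59 for Slc1a5, 0.28 for Slc38a1, 0.24 for Slc3a2 and 0.23 for Slc38a2. The last 3 were not firm: Slc38a1 lost its call without stimulated WT replicate 2 (0.23), Slc3a2 without stimulated WT replicate 1 or 2 or stimulated SDHA-KO replicate 2 (0.19, 0.24 and 0.20), and Slc38a2 without either unstimulated SDHA-KO library (0.23 each), either stimulated WT library (0.21 and 0.22) or stimulated SDHA-KO replicate 2 (0.12). With Trdc cells left out, Slc7a5 (0.40 ± 0.09) and Slc1a5 (0.48 ± 0.08) remained called, and Slc3a2 (0.19, adjusted p = 0.052), Slc38a1 (0.04) and Slc38a2 (0.13) were not. Strict classes kept only cells with UMIs of the marker of their own class, none of the other and no Trdc UMI. They left 316 stimulated SDHA-KO CD8-class cells, and the difference for Slc7a5 was then 0.20 and not called.

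The share of cells with at least 1 UMI showed how many cells carried each mRNA, and each cell was thinned to 5000 UMIs because depth differed between groups. Shares are given as a description and were not tested, and an exact permutation test of 2 against 2 libraries could not give a p below 0.3333. In the CD4 class Slc7a5 was seen in 32.6% ± 0.67 (SD, n = 2) of stimulated WT and 16.04% ± 0.73 of stimulated SDHA-KO cells. Unthinned, these were 63.1% and 48.3%. Slc1a5 was seen in 48.2% ± 1.43 and 28.9% ± 2.57, while Slc7a1 was seen in 49.6% ± 1.15 and 47.2% ± 2.36, a gap no wider than the spread between libraries.

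In the CD8 class the thinned share of Slc7a5 was 46.3% ± 4.16 for stimulated WT cells and 41.8% ± 5.82 for their SDHA-KO counterparts, so the libraries' spread was as wide as the difference. Unthinned, the order of the genotypes was the reverse, 76.4% and 81.7%. Without Trdc cells the thinned shares were 46.3% ± 4.40 and 32.8% ± 4.65. Slc7a11 was seen in 1.83% ± 0.60 of all stimulated WT cells and 0.158% ± 0.04 of stimulated SDHA-KO cells, and Slc1a4 in 5.91% ± 0.46 and 2.19% ± 0.15. For scale, B cell gene Cd79a and haemoglobin gene Hbb-bs, which T cells should lack, were seen in 0.263% to 0.755% and 0% to 0.276% of cells thinned in the same way. The SDHA-KO share of Slc7a11 lay within that range and cannot be told from free RNA.

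Both chains of LAT1 were seen together in 22.2% ± 1.86 of stimulated WT CD4-class cells and in 8.31% ± 0.89 of the SDHA-KO ones, and in 34.6% ± 2.63 and 28.2% ± 3.63 of CD8-class cells. In CD8-class cells without a Trdc UMI they were seen together in 34.4% ± 2.70 and 24.2% ± 2.79. A stimulated CD4-class cell held UMIs of 3.11 different members on average in WT and 2.20 in SDHA-KO. Slc7a5 mRNA was unevenly spread: the tenth of CD4-class cells with the most of it held 51.0% and 52.7% of its thinned UMIs in the 2 stimulated WT libraries and 64.3% and 69.2% in the SDHA-KO ones. With fewer UMIs of a gene, more of them fall in fewer cells by counting alone, and those shares were not corrected for it.

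**Figure D3:**
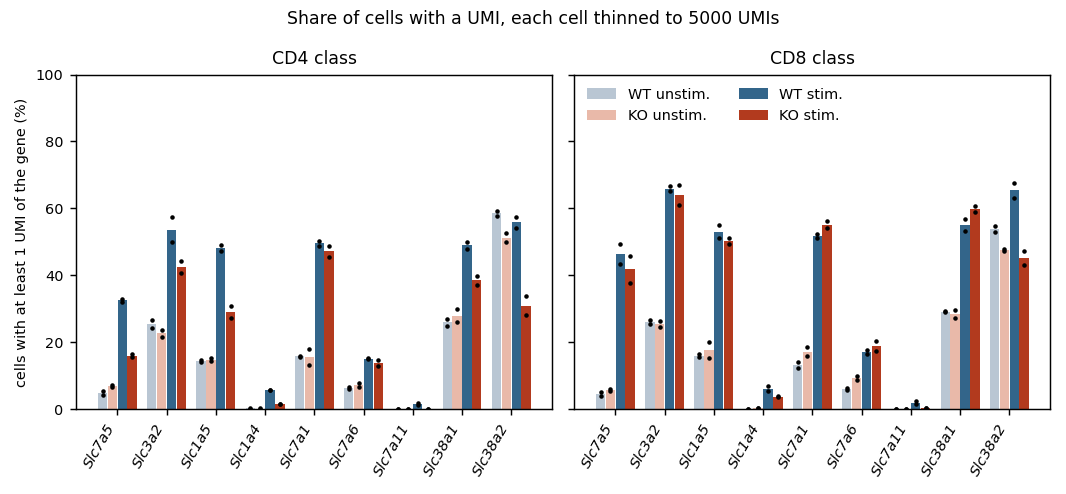
Share of cells with at least 1 UMI of each transporter gene (percent, bars are means of 2 libraries and dots the libraries), each cell thinned to 5000 UMIs, in the CD4 and CD8 class. In stimulated CD4-class cells the Slc7a5 bar is 32.6% in WT and 16.04% in SDHA-KO, and that of Slc7a1 49.6% and 47.2%.

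The stimulated classes differed in their makeup, and fewer cells of a type and less mRNA per cell cannot be told apart in their sums. The submitters' CD4 Tem5 subset took 5.99% of stimulated WT and 30.8% of stimulated SDHA-KO CD4-class cells, CD4 Tem1 7.31% and 16.7%, CD4 Tem4 1.95% and 9.26%, CD4 Tem7 3.47% and 8.11%, CD4 Tcm2 22.5% and 6.67%, and CD4 Tcm4 18.8% and 6.17%. In the CD8 class Tem1 took 1.91% and 27.3%, and Tcm1 21.7% and 3.72%. The members were therefore compared within each subset that had at least 20 cells in all 4 stimulated libraries, which 12 of 20 subsets met, 8 of them CD4 and 4 CD8.

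Levels differed strongly between subsets of 1 genotype. In stimulated WT, Slc7a5 ranged from 27.2 ± 4.03 plain CPM (SD, n = 2) in CD4 Tem1 to 313 ± 69.1 in CD8 Tcm5. Slc1a5 ranged from 50.2 ± 0.32 in CD4 Tem1 to 332 ± 14.96 in CD8 Tcm3, and Slc7a1 from 58.5 ± 3.13 to 452 ± 41.7 in the same 2 subsets. In stimulated SDHA-KO the lowest Slc7a5 was 25.8 ± 0.83 in CD4 Tem4 and the highest 293 ± 1.72 in CD8 Tcm3. Of the 4 CD4 subsets that took more of the SDHA-KO cells, Tem1, Tem7 (28.8 ± 21.1 plain CPM) and Tem5 (34.0 ± 5.18) had the lowest Slc7a5 of the WT subsets measured, and Tem4 had too few WT cells.

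Of 96 pairs of a member and a subset, 28 were called, 23 lower and 5 higher in SDHA-KO, while 20.5% of all genes tested in these subsets were called and the share in single subsets ran from 5.63% to 32.6%. Slc7a5 was lower in 5 of the 8 CD4 subsets. In CD4 Tcm4 it was at 88.9 and 77.7 CPM in SDHA-KO and 198.3 and 235.7 in WT (log2 −1.38 ± 0.15), and in CD4 Tem3 at 34.0 and 29.2 against 82.2 and 81.0 (−1.39 ± 0.11). The differences were −1.44 in Tcm3, −1.03 in Tem2 and −0.73 in Tcm2. It was not called in the 3 tested CD4 subsets that took a larger share of SDHA-KO cells, Tem5 (−0.01 ± 0.15), Tem1 (−0.37 ± 0.16) and Tem7 (0.08 ± 0.45), and not in any CD8 subset.

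The other lowered members followed a similar list of subsets. Slc3a2 was lower in Tcm3, Tcm4, Tem2 and Tem3, and Slc1a5 and Slc1a4 in Tcm4, Tem2 and Tem3 of the CD4 class. Slc38a2 was lower in the CD4 subsets Tcm3, Tcm4, Tem2 and Tem3 and, unlike the rest, in CD8 Tcm2 (−0.85) and CD8 Tem2 (−0.42). Slc7a11 could be tested in 2 subsets and was lower in CD4 Tcm4 (−2.44). Slc1a5 showed the widest called difference in CD4 Tcm4 (−1.09).

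The 5 rises belonged to genes that were not called in the class sums. Slc7a1 was higher in SDHA-KO in CD4 Tem1 (0.81 ± 0.10) and CD4 Tem5 (0.74 ± 0.10) and lower in CD4 Tcm4 (−0.37 ± 0.11), so its equal class totals covered differences of both signs. Slc7a6 was higher in CD4 Tem5 (0.74), and Slc38a1 in CD8 Tcm2 (0.44) and CD8 Tem2 (0.26). In the 4 CD8 subsets, between 48.0% and 82.5% of the SDHA-KO cells carried a Trdc UMI, and without those cells none of the 4 kept 20 cells per library. In the 8 CD4 subsets without such cells, 25 of 63 pairs were called, against 24 with all cells. With all cells, 8.47% (Tem7) to 28.3% (Tem5) of all genes were called in single CD4 subsets. The share over all genes without such cells is not given here, so the 25 calls cannot be set against it.

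**Figure D4:**
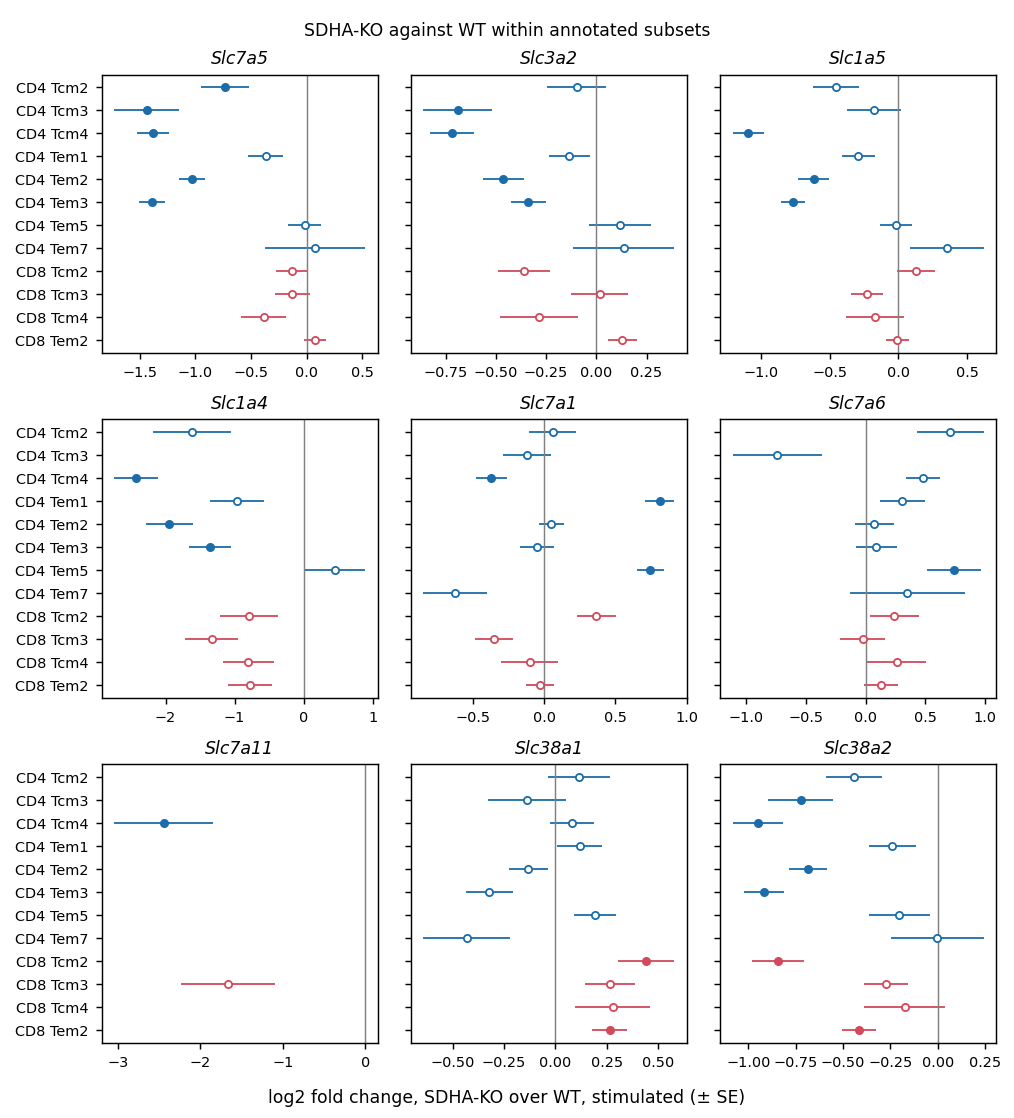
Log2 fold change (± SE) of stimulated SDHA-KO over WT for each transporter gene within the 12 annotated subsets tested, CD4 in blue and CD8 in red, filled where the test was passed. Slc7a11 was tested in 2 subsets. Slc7a5 lies at −1.38 in CD4 Tcm4 and at −0.01 in CD4 Tem5.

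Genes with the most similar course were looked up over the 16 sums of library and class, among the 5728 genes whose mean reached 20 CPM. The points share libraries and are a description. They include resting and stimulated cells, so genes that change alike on stimulation have a high r without any other likeness. Slc7a5 ran most closely with Hsp90b1, an endoplasmic reticulum chaperone (r = 0.991), Yars, the tyrosyl-tRNA synthetase (0.990), and P4hb, a disulfide isomerase (0.989). Slc1a5 was the gene nearest to Slc3a2 (0.979). Slc1a5 itself ran with Snhg4 and Yars (both 0.984), and Slc7a1 with the proliferation genes Uhrf1 (0.996), Gmnn (0.995) and Tpx2 (0.995). Slc38a2 ran with the splicing genes Son (0.976) and Tra2b (0.970).

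The other genes of amino acid supply were followed as lists in stimulated SDHA-KO against WT, all T cells, where 26.2% of all genes were higher and 21.0% lower. Of 22 other plasma membrane transporters 10 could be tested, with 0 higher and 4 lower (median −0.47), among them Slc43a2, which encodes LAT4, a carrier of branched-chain amino acids, with a log2 difference of −1.33 ± 0.12. Of 10 lysosomal transporters 9 were tested, with 1 higher and 1 lower, the latter Slc38a9 (−0.60), whose product senses arginine at the lysosome. Of 36 genes of amino acid sensing at MTORC1, 10 were higher and 7 lower (median 0.12), close to the shares over all genes. Among called genes of this list with a mean of at least 20 CPM, the 4 with the widest change were all higher. They were Sesn3 (1.44), a relative of the leucine sensor Sestrin, Lamtor4 (0.89), Lamtor2 (0.80) and Lamtor5 (0.70). The Lamtor genes encode parts of the lysosomal anchor of the Rag GTPases. Under that level, mean CPM in stimulated WT and SDHA-KO was 8.41 and 3.59 for Rragd and 11.8 and 31.6 for Castor1.

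Of 25 enzymes that use the carried amino acids, 10 were higher and 5 lower (median 0.20), against 26.2% and 21.0% of all genes. Asns, which makes asparagine and whose promoter stretch is given above, was lower by 1.73 ± 0.18 on the log2 scale (adjusted p = 8.0e-05), after going from 5 to 7717 UMIs on stimulation in WT cells, a ratio of 294 in CPM (95% counting interval 126 to 906). Among called enzymes with a mean of at least 20 CPM, the widest changes after that of Asns were rises. They were those of the polyamine enzyme Odc1 (0.72), glutathione reductase Gsr (0.56) and the purine enzyme Ppat (0.45). Called enzymes under that level are not named, so the named enzymes do not show the balance of rises and falls. Of 10 genes that regulate the transporters, 9 were tested, with 2 higher and 4 lower. Regulators were named by the same rule, and the remaining lower ones are not named. Ddit3, the stress factor CHOP, was at −2.06 ± 0.13 and Nfe2l2, which encodes NRF2, at −0.33. Hif1a (0.56) and Myc (0.39) were higher in SDHA-KO. On stimulation in WT cells Atf4 (1.56) and Hif1a (1.64) rose.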

How the data were processed

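Count matrix and cell table were used as deposited. Per the labels, libraries were made with a droplet-based 3′ kit, demultiplexed with bcl2fastq and aligned and counted with Cell Ranger (version not given in the sources used here) to mm10. The authors combined libraries in Seurat 4.2.0, removed cells with more than 6000 (unstimulated) or 8000 (stimulated) detected genes, dropped clusters without CD3 genes, and assigned the CD4 or CD8 class and subset by cluster from Cd4, Cd8a and memory markers. The deposited matrix holds unnormalised UMI counts. The table the authors deposited also gives each cell's percentage of mitochondrial UMIs, computed in Seurat from 13 mitochondrially encoded genes. No further cell was removed and no doublet caller was run. Totals recomputed from the matrix matched the deposited table in all 12846 cells.

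UMI counts were summed per library, class and subset, and tested with edgeR 4.0.16 (R 4.3.3), quasi-likelihood fits with TMM scaling, filterByExpr (minimum count 10, minimum total 15), 1 coefficient per group over 8 libraries (4 residual degrees of freedom) and Benjamini-Hochberg adjustment over all genes tested, called at 0.05. The classes were compared on 16 sums with a library block, and subsets in fits of the 4 stimulated libraries. The spread between replicates was 8.71% in all T cells. Replicates were not duplicates: chi-square per degree of freedom between them ran from 2.06 to 17.7. Shares of cells used thinning to 5000 UMIs (43 to 181 cells per group were shallower and left out). The loss was uneven: of stimulated CD4 Tcm cells, 339 were kept and 120 left out in SDHA-KO, against 1110 and 24 in WT. Of stimulated CD4 Tem cells, 1922 were kept and 40 left out in SDHA-KO, against 678 and 14 in WT. Positions are GRCm38 (GENCODE vM21), in which no exon of another gene overlaps an exon of a member. The tests were checked on simulated counts. The 9 members and the gene lists were chosen with earlier results of these data known. Besides the members, up to 4 called genes per list with the widest change among those of at least 20 CPM were named for SDHA-KO against WT, up to 2 for stimulation of WT, and the 3 genes most like each member. Alternatives were DESeq2 1.42.0, limma-voom (limma 3.58.1), plain library sizes, no filter, thinning to the smallest library, only the compared libraries, a mitochondrial limit, strict classes, leaving out each library, and a replicate block. Strict classes also left out cells with a Trdc UMI. Leaving out only the cells with a Trdc UMI was added after the data were seen. The genes whose pattern was most like that of Slc38a1 are not reported here.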

Additional observations from a re-analysis of the deposited data

Results flagged for a closer look

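The effect of SDHA-KO differed between stimulated and unstimulated cells by the interaction test for Slc7a5 (−1.17), Slc1a5 (−0.52), Slc1a4 (−1.65) and Slc38a2 (−0.48) in all T cells, and for Slc7a5 (−1.75), Slc1a5 (−0.84) and Slc38a2 (−0.57) in the CD4 class, all on the log2 scale. The effect in stimulated cells differed between the CD8 and CD4 classes for Slc7a5 (0.89), Slc3a2 (0.24), Slc1a5 (0.59), Slc38a1 (0.28) and Slc38a2 (0.23). The CD8 class of stimulated SDHA-KO cells is also the class in which 57.6% of cells carried a Trdc UMI, and without such cells the values were 0.40 for Slc7a5, 0.48 for Slc1a5, 0.19 for Slc3a2, 0.04 for Slc38a1 and 0.13 for Slc38a2, of which the first 2 were called.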

How the results depend on the processing

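Over all alternatives and comparisons, 1959 values of single members kept their direction and their side of the threshold, 100 lost a call, 40 gained one and 17 changed sign. The 6 lower members of stimulated SDHA-KO cells were also 6 in every leave-one-out fit of all T cells and of the CD4 class. The cause of the changes below was not tested. In unstimulated SDHA-KO against WT, where 0 members were called, DESeq2 called 1 in all T cells, 1 in the CD4 class and 1 in the CD8 class, fits of only the compared libraries 1 in each, thinning 1 in the CD4 and 1 in the CD8 class, no filter on low counts 2 in the CD4 and 1 in the CD8 class, and the mitochondrial limit 1 in the CD8 class. Slc38a2, lower in SDHA-KO, was also called without either stimulated SDHA-KO library in all T cells and in the CD4 class, and without stimulated WT replicate 2 in the CD8 class. In the stimulated CD8 class DESeq2 called 3 of the 5. The count of interactions was 2 in all T cells under the mitochondrial limit, and in the CD8 class 3 with plain library sizes, 2 with strict classes and 2 without Trdc cells. CD8 against CD4 gave, in unstimulated WT, 1 with plain library sizes, 0 with DESeq2, 0 with limma-voom, 0 with strict classes and 1 without Trdc cells, in unstimulated SDHA-KO 1 with plain library sizes and 1 with only the compared libraries, and in stimulated WT 4 with DESeq2 and 2 under the mitochondrial limit. The difference of KO effects between classes was called for 3 members with DESeq2, 3 with thinning, 2 with strict classes and 2 without Trdc cells. In subsets DESeq2 called 18 pairs.

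Signs changed as follows. Under the mitochondrial limit, stimulated SDHA-KO against WT became 0.26 for Slc7a1 and 0.035 for Slc38a1 in all T cells, and 0.060 for Slc1a5 and 0.24 for Slc7a1 in the CD8 class, and Slc7a1 became −0.015 for CD8 against CD4 in stimulated WT. Slc7a6 became −0.00011 in all T cells without Trdc cells and, in the CD8 class, −0.017 with plain library sizes, −0.0040 with strict classes and −0.050 without Trdc cells. Slc38a1 in the CD8 class became −0.20 with strict classes and −0.18 without Trdc cells, and its difference of KO effects −0.063 with strict classes. Slc38a2 on WT CD8-class stimulation became 0.051 with plain library sizes, and Slc1a4 in CD8 against CD4 of stimulated SDHA-KO −0.078 with thinning. Leaving out 1 library gave −0.077 to 0.012 for Slc7a1 in all T cells (the highest without stimulated WT replicate 1), −0.014 to 0.10 for Slc7a1 in the CD4 class and −0.047 to 0.11 for Slc7a6 in the CD8 class (the lowest of both without stimulated WT replicate 2).

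Leaving out each library in turn gave 0 to 1 members in unstimulated SDHA-KO against WT, 3 to 5 in the stimulated CD8 class, 2 to 5 interactions in all T cells, 2 to 3 in the CD4 and 0 to 1 in the CD8 class, and 8 to 9 for stimulation. CD8 against CD4 gave 0 to 3 in unstimulated WT, 5 to 7 in stimulated WT and 6 to 7 in stimulated SDHA-KO, the difference of KO effects 2 to 5, and subsets 21 to 29. Plain library sizes moved the share of calls that were higher from 53.7% to 69.4% for WT stimulation in all T cells, from 54.1% to 63.5% in SDHA-KO, from 54.6% to 65.4% and from 54.0% to 75.6% in the WT CD4 and CD8 classes, from 52.4% to 62.8% and from 54.6% to 66.3% in the SDHA-KO ones, and from 46.8% to 62.9% for CD8 against CD4 in stimulated WT. Whether equal replicate numbers mark a shared mouse, day or run is not stated in the labels. Deviations of same-numbered libraries correlated at −0.24 to 0.03, which cannot decide it. With a replicate block the CD8 class had 4 lower members after stimulation in place of 5, and the other counts did not change. Depth limited Slc7a11 and Slc1a4 at rest, where no library held more than 8 UMIs of either gene.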

Other observations

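Slc7a6 ran most closely over the 16 sums with Rpn2 (r = 0.977), Cdk6 (0.976) and Vars (0.969). Slc3a2 was followed after Slc1a5 by Canx (0.977) and Hist2h2ac (0.973), Slc1a5 had Acaca next after those named above (0.983) and Slc38a2 had 1700084C06Rik (0.957). Slc7a11 and Slc1a4 stayed under the level needed for that search. On stimulation of WT cells, where 37.0% of all genes were higher and 31.9% lower, the lists had 6 higher and 3 lower of 10 tested other plasma membrane transporters, 2 and 3 of 9 lysosomal ones, 11 and 14 of 36 genes of amino acid sensing at MTORC1, 15 and 5 of 25 enzymes and 5 and 2 of 9 regulators. Bcat1, the cytosolic branched-chain transaminase, went from 3 to 5836 UMIs, a ratio of 371 in CPM (95% counting interval 127 to 1799). The thyroid hormone and aromatic amino acid carrier Slc16a10 rose by 1.32 and Fnip1 by 1.62 on the log2 scale, and Sesn1 (−1.49), Slc43a2 (−0.90) and Slc38a9 (−0.32) fell.

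In unstimulated CD4-class cells Cd4 itself was at 155 plain CPM in WT and at 550 to 631 plain CPM in SDHA-KO, and in stimulated ones at 98.2 to 101.2 and 151.6 to 158.3 plain CPM. The red cell genes summed to 0.04 to 3.73 plain CPM and the platelet genes to 0 to 1.47 plain CPM over all libraries.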
